A study of Mus musculus with 76 samples.

Results

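The Hox genes were followed as 1 family through 76 mouse tumours that had each been driven by 1 of 13 introduced genes. Members were all genes whose symbol is Hoxa, Hoxb, Hoxc or Hoxd followed by a digit, each read from its probe set with the highest mean over all arrays. This gave 36 genes of the 18194 measured, among them 3 antisense RNAs (Hoxa11os, Hoxb5os and Hoxd3os1). Hoxb8 and Hoxd4 were read only by probe sets that name another Hox gene too, and are not among the members. Cluster Hoxa on chromosome 6 gave 10 members, Hoxb on chromosome 11 gave 10, Hoxc on chromosome 15 gave 7 and Hoxd on chromosome 2 gave 9.

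Hox genes encode homeodomain transcription factors that set position along the body axis in the embryo. They lie in clusters, and genes at one end of a cluster are used earlier and nearer the head than genes at the other end, with Polycomb proteins keeping silent members off and Trithorax proteins and retinoic acid receptors acting on active ones. Adult mammary epithelium and connective tissue fibroblasts keep parts of this code, and Hoxa5, Hoxa9, Hoxb9 and Hoxd9 are known for roles in mammary development or lactation in the mouse.

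All tumours were of strain C57BL/6 and came from a directed complementation model. Its tumours were first driven by HER2(V659E), an activated receptor tyrosine kinase under doxycycline control, which was shut off by taking doxycycline away before another gene was put in. The introduced genes were MAP3K11, MAP3K7, ErbB3, FAK1, FGFR2aIIIb, FGFR2aIIIc, FGFR3, PIP5K1B, RONd160, RON+MSP (the receptor RON with MSP, its ligand), RSK2, TNK2 and HER2 itself, with 4 arrays for FAK1 and 6 for each of the others. The MAP3K11 tumours are labelled with cachexia and those of the other 12 groups without, and arrays are labelled T1, T2 or T3, a term the labels do not define; TNK2 has T1 and T2 arrays only. Neither the promoter behind the introduced genes nor the number of tumour lines or animals is given, so the introduced gene and the line a tumour came from cannot be told apart.

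Each array gave log2 intensities for 45101 probe sets, normalised by the authors; in what follows a level is such a log2 value and a difference is a difference of log2 values. Within every group the arrays could be matched into pairs, 38 in all, most of them closely alike, although the labels call the tumours biological replicates. Within each group, the matching with the highest sum of Pearson r over the medians of 19 chromosomes was taken, with Hox genes left out. On these medians paired arrays had a median Pearson r of 0.957, against 0.163 for other arrays of the same group. Because pairs were chosen for a high r, a gap in this direction was built in and is no test of pairing. The pairs ranged from 0.51, in MAP3K11, to 0.992. The arrays of a pair never carry the same T label. All p-values therefore rest on a spread among arrays that may be technical, and each count of calls is given a second time with the pairs as a random block. A gene was called at a limma adjusted p (Benjamini-Hochberg over 13868 genes) under 0.05. Of the epithelial markers, Krt8 had a median level of 12.58, Epcam 7.13 and Cdh1 7.15, while Esrp1 was near the control level at 3.09. In bulk tumours, fewer cells of a type and less RNA per cell cannot be told apart.

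Of the family, some members stayed near the level of control probe sets in every group, most of them in clusters Hoxa and Hoxd. The control level, the median of bacterial trp control probe sets, was 2.95, and a gene was called near background when no group mean lay above 3.95. By this measure 9 of the 36 members were near background: Hoxa2, Hoxa13 and Hoxa11os in cluster Hoxa, Hoxb1 in Hoxb, and Hoxd1, Hoxd3, Hoxd10, Hoxd11 and Hoxd12 in Hoxd. In cluster Hoxc none was. The 5 near-background genes of Hoxd include Hoxd10, Hoxd11 and Hoxd12, which pattern the distal limb in the embryo.

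**Figure D1:**
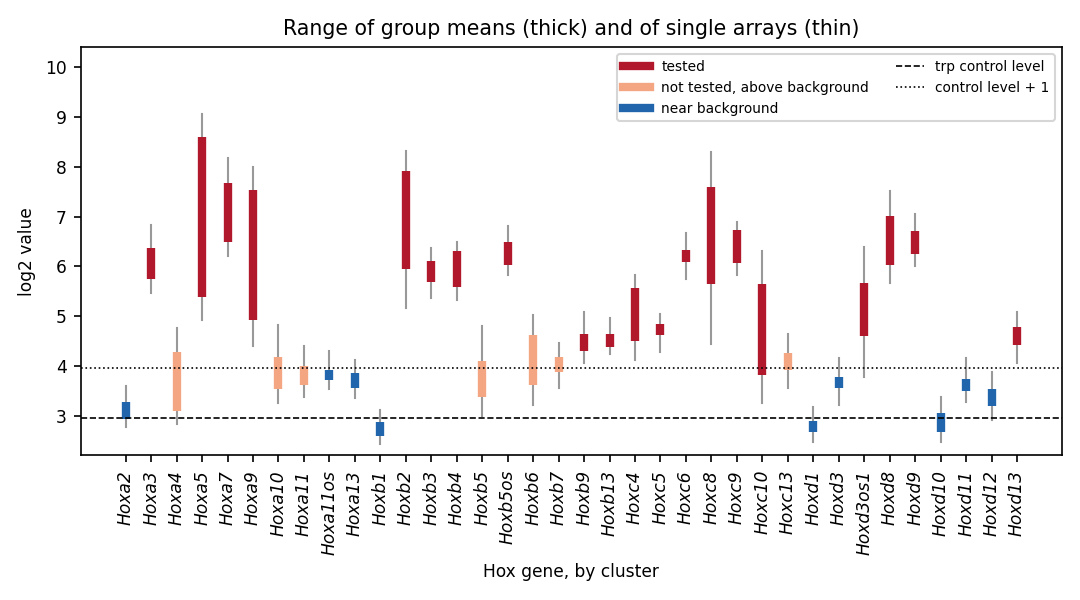
Levels of all 36 Hox genes, with log2 intensity on the y axis and genes by cluster on the x axis; thick bars span the 13 group means, thin lines span the 76 arrays, the dashed line is the control level of 2.95 and the dotted line is 1 above it. The thick bars of 9 genes (blue) stay below the dotted line, red bars are tested genes and light bars genes that were not tested, and Hoxa5 has the longest bar, from 5.38 to 8.59.

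The filter for testing asked for a level above the 40th percentile of the array in at least 4 arrays, and 20 members passed it. They were Hoxa3, Hoxa5, Hoxa7 and Hoxa9; Hoxb2, Hoxb3, Hoxb4, Hoxb5os, Hoxb9 and Hoxb13; Hoxc4, Hoxc5, Hoxc6, Hoxc8, Hoxc9 and Hoxc10; and Hoxd3os1, Hoxd8, Hoxd9 and Hoxd13. Hoxb13 passed through only 4 arrays (1 of MAP3K11, 2 of MAP3K7 and 1 of TNK2) and Hoxb9 through 5 arrays of 5 groups. The remaining 7 members, Hoxa4, Hoxa10, Hoxa11, Hoxb5, Hoxb6, Hoxb7 and Hoxc13, missed the filter but had at least 1 group mean above 3.95. Hoxc13, a regulator of hair keratins, did so in 10 groups and Hoxa4 in 1, the TNK2 tumours.

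Among the 13 groups the tested Hox genes differed most in Hoxa5, Hoxa9, Hoxb2, Hoxc8 and Hoxc10. By limma's F test, 16 of the 20 tested members differed among groups, where 85.9% of all tested genes did, and with the pairs as a block 13 did, where 54% of all genes did. The first share is close to that of all genes. Hoxb13, Hoxc5, Hoxc6 and Hoxd13 were not called in either fit, and Hoxb3, Hoxb9 and Hoxd3os1 lost their call with the block. The span from the lowest to the highest group mean had a median of 0.70 over the 20 genes and of 0.55 over all genes tested. It was 3.21 for Hoxa5, 2.60 for Hoxa9, 1.96 for Hoxb2, 1.94 for Hoxc8 and 1.84 for Hoxc10, and between 0.23 and 1.19 for the others. MAP3K11 had the highest of the 13 means for 9 of the 20 genes and the lowest for none. ErbB3, FGFR2aIIIb and HER2 each had the lowest mean for 4 genes, and PIP5K1B for 3.

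**Figure D2:**
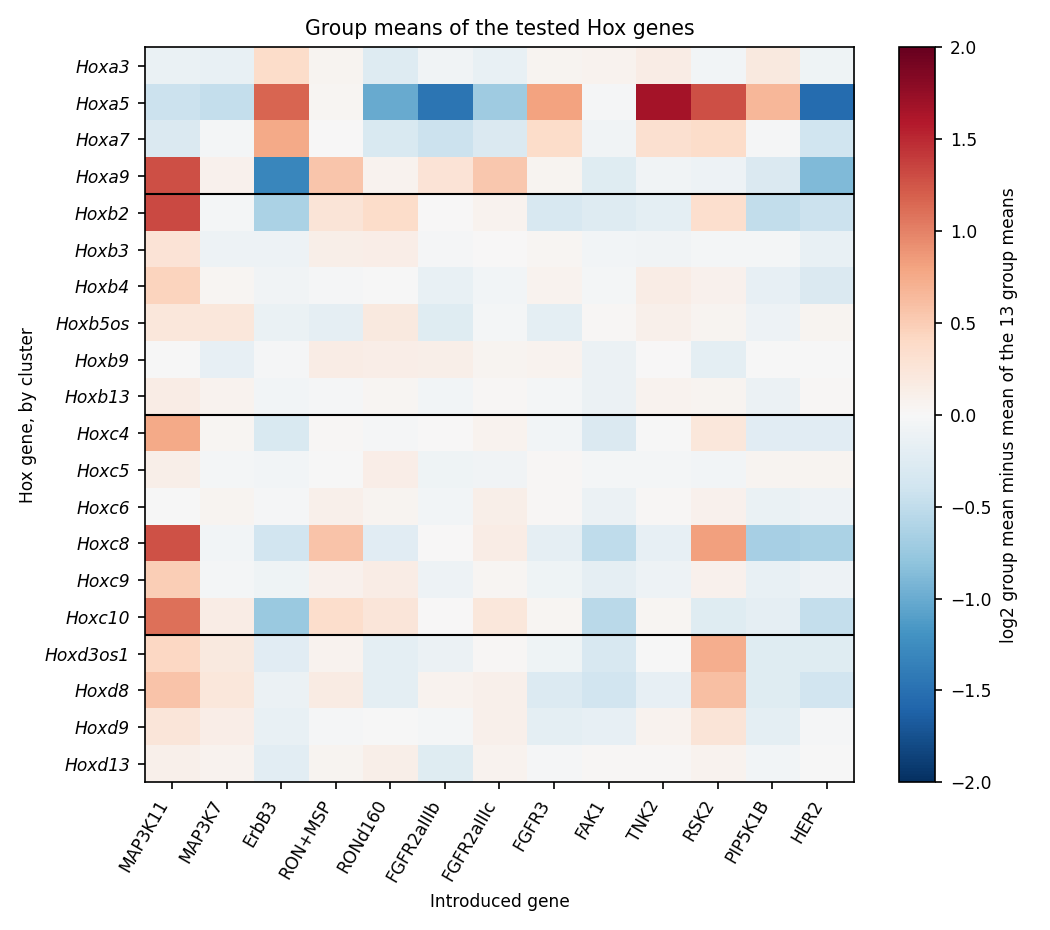
Group means of the 20 tested Hox genes, each set against the mean of its 13 group means (colour, log2 difference); columns are introduced genes, with MAP3K11 at the left and HER2 at the right, and genes are listed by cluster. Hoxa9, Hoxb2, Hoxc4, Hoxc8 and Hoxc10 share their highest value in MAP3K11, whereas Hoxa5 is highest in TNK2 and lowest in HER2.

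Hoxa5, a homeodomain factor that is often silenced in human breast cancer, covered the widest range. It lies on chromosome 6 at 52201754 to 52204587 (GRCm38.p6), inside the annotated span of Hoxa3, 52169059 to 52213067. Its highest group means were 8.59 in TNK2, 8.22 in RSK2 and 8.09 in ErbB3, followed by 7.73 in FGFR3 and 7.59 in PIP5K1B. Its lowest were 5.38 in HER2, 5.46 in FGFR2aIIIb and 5.92 in RONd160, with FGFR2aIIIc at 6.22, MAP3K7 at 6.45, MAP3K11 at 6.48, FAK1 at 6.90 and RON+MSP at 6.96 between. The 3 top groups overlapped among themselves, with arrays from 8.15 to 8.80 in TNK2, 7.43 to 9.07 in RSK2 and 7.80 to 8.40 in ErbB3. None of their arrays reached down to the arrays of HER2 (4.93 to 5.62) or FGFR2aIIIb (5.14 to 5.79), and those low groups overlapped each other. The gene was thus high or low by group, with the sizes of the differences set against the other 12 groups as follows.

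The Hoxa5 level in TNK2 tumours had a lowest, median and highest array of 8.15, 8.69 and 8.80, against 4.93, 6.77 and 9.07 in the other 70 arrays. Only 7 of those 70 reached the lowest TNK2 array, and the mean level was 8.59 ± 0.25 in TNK2 against 6.78 for the other 12 groups (SD, n = 6; log2 difference 1.81, SE 0.28, limma adjusted p = 3.84e-05, 0.000384 with the block). Hoxa5 was the 1 gene of the 20 tested Hox genes that was called in TNK2, being higher there, where 3.26% of all genes were higher, and it was still called with the block, where 0.0649% of genes were higher. In HER2 tumours Hoxa5 was lower, at 5.38 ± 0.25 against 7.05 (SD, n = 6; difference -1.67, SE 0.28, limma adjusted p = 8.69e-06). The FGFR2aIIIb tumours were nearly as low, at 5.46 ± 0.26 against 7.04 (SD, n = 6; difference -1.58). Higher levels in ErbB3 (difference 1.27) and RSK2 (1.40) and a lower level in RONd160 (-1.08) were also called, and all 6 calls were kept with the block. When each pair was averaged to 1 value the call was kept in HER2 and lost in the other 5, with limma adjusted p between 0.0638 in ErbB3 and 0.137 in TNK2.

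The same gene also differed between pairs of arrays inside some groups. In FAK1 tumours 1 pair of arrays had Hoxa5 levels of 8.12 and 8.03, and the other pair 5.75 and 5.69. In MAP3K7 tumours 1 pair stood at 8.08 and 8.15, and the other 4 arrays lay between 5.47 and 5.87. In PIP5K1B tumours it was a low pair, 6.34 and 6.38, beside 4 arrays between 8.07 and 8.44. RONd160 had 1 pair at 6.85 and 6.95 and 4 arrays from 5.25 to 5.86. Paired arrays thus shared their Hoxa5 level closely, with a median absolute difference of 0.11, against 0.43 between other arrays of a group. That ratio was 3.89 for Hoxa5 and 1.59 for the median of all tested genes, and 201 genes (1.45%) had a ratio at least as large. For Hoxa5 the mean of FAK1, MAP3K7 or PIP5K1B therefore stands for no single array of the group.

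**Figure D3:**
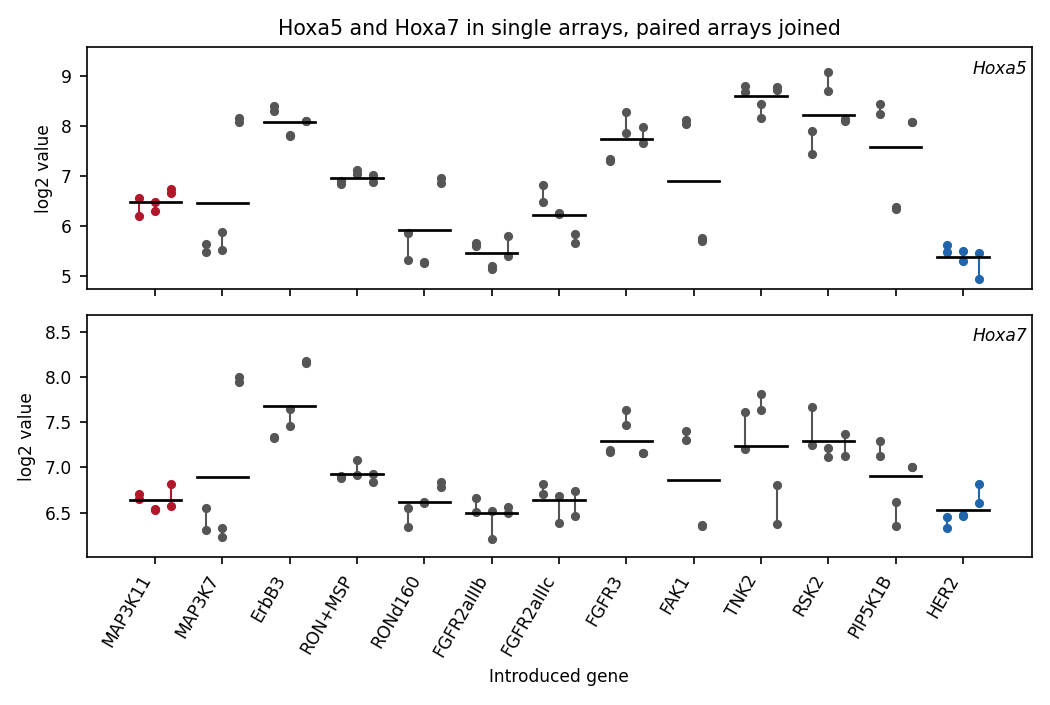
Log2 level of Hoxa5 and Hoxa7 on each array, by introduced gene (MAP3K11 in red at the left, HER2 in blue at the right); lines join paired arrays and black bars are group means. Hoxa5 separates into pairs near 8 and pairs near 5.7 within FAK1 and MAP3K7, and all HER2 arrays lie at or below 5.62.

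Hoxa7, which lies beyond Hoxa5 on the side of the higher-numbered genes (chromosome 6, 52215623 to 52218573), had a similar order of groups over a smaller range. Its means were between 7.68 in ErbB3 and 6.49 in FGFR2aIIIb. The ErbB3 arrays had a lowest, median and highest level of 7.33, 7.55 and 8.18, above all HER2 arrays at 6.33, 6.47 and 6.82. Hoxa7 was called higher in ErbB3 than in the other 12 groups by 0.83 and lower in HER2 by -0.43 and in FGFR2aIIIb by -0.47, and only the ErbB3 call was kept with the block. The MAP3K7 pair with high Hoxa5 also had the high Hoxa7 levels of that group, 7.94 and 8.0 beside 6.23 to 6.55, and the FAK1 pair had 7.30 and 7.40 beside 6.35 and 6.37. Hoxa4 stood near background in most groups, with a mean of 4.28 in TNK2, 3.33 in MAP3K11 and 3.09 in HER2. It did not pass the filter, and without any filter its difference in TNK2 was 0.77 (limma adjusted p = 0.00263).

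Over the 13 group means the levels of Hoxa5 and Hoxa7 correlated at a Pearson r of 0.892 (Spearman 0.923), and at 0.897 without TNK2 and HER2, the groups farthest out in Hoxa5. For Hoxa5 with Hoxa4 the value was 0.933, with Hoxa3 it was 0.698 and with Hoxa2, which was near background in every group, it was 0.784. With Hoxa9, a leukaemia-linked factor that is the next gene beyond Hoxa7 (52223097 to 52227370), it was -0.241. Among the measured genes of cluster Hoxa, likeness to Hoxa5 thus held for Hoxa3, Hoxa4 and Hoxa7. The r of Hoxa2 cannot place it, since its group means lay between 2.935 and 3.262. Without a filter Hoxa2 was not called among the groups (limma F test, adjusted p = 0.169). Likeness did not hold for Hoxa9, nor for Hoxa10 (-0.211), Hoxa11 (-0.281), Hoxa11os (-0.103) or Hoxa13 (0.0232). Of all tested Hox genes, Hoxa7 was the nearest to Hoxa5 by this measure. These values describe 13 means that share arrays, normalisation and cell composition.

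The sequences just before the starts of Hoxa5, Hoxa7 and Hoxa9 are shown because the likeness to Hoxa5 held for Hoxa7 and not for Hoxa9. Each is 250 bases from RefSeq (GRCm38.p6), written 5′ to 3′ on the gene's own strand, with every CpG dinucleotide in capitals. Hoxa5 is chr6:52204588-52204837, Hoxa7 is chr6:52218574-52218823 and Hoxa9 is chr6:52227371-52227620, all on the minus strand.
Hoxa5: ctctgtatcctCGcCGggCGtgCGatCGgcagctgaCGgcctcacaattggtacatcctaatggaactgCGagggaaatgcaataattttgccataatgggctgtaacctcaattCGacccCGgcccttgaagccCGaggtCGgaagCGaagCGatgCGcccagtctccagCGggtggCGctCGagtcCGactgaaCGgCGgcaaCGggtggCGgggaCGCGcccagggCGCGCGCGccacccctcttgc
Hoxa7: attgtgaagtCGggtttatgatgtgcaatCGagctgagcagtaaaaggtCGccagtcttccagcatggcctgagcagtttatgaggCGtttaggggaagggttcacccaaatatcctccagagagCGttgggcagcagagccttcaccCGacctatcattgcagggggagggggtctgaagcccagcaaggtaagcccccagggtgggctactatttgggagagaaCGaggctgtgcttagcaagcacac
Hoxa9: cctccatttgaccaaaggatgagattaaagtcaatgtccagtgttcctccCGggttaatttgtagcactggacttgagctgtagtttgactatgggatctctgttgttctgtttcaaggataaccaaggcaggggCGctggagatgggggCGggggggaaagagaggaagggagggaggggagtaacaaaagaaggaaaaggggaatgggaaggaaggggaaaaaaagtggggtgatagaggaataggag
The Hoxa5 stretch held 28 CpG dinucleotides, and 7.61% of 32851 RefSeq mouse promoter stretches of that length held as many. Hoxa7 held 7 and Hoxa9 held 3, where the median of all was 6. The motif CCAAT, read on both strands, was in the Hoxa5 stretch and in 33.8% of all, and GGGCGG was in that of Hoxa9 and in 32.7% of all. The homeodomain motif TAATTA (4.84% of all) and the motif TGATNNAT of Hox proteins with their partner PBX (7.68% of all) were in none of the 10 tested members that the promoter table holds. A match here is a description of letters and not a binding site.

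MAP3K11 tumours, the cachexia group, had higher levels of Hox genes from all 4 clusters. Called higher were 13 of the 20 tested members and called lower was none, where 25% of all tested genes were called higher and 29.3% lower. With paired arrays blocked, 10 were called higher, where 17.3% of all genes were. The differences led with Hoxb2 (1.44), Hoxa9 (1.40), Hoxc8 (1.39), Hoxc10 (1.20) and Hoxc4 (0.82), followed by Hoxd8 (0.63), Hoxc9 (0.53), Hoxb4 (0.47), Hoxb3 (0.30) and Hoxd9 (0.27). Hoxd3os1 (0.44), Hoxb5os (0.24) and Hoxb13 (0.16) lost their call with the block, at limma adjusted p of 0.156, 0.0867 and 0.213. The median difference was 0.28 over the tested Hox genes and -0.01 over all tested genes. Under quantile normalisation 12 were higher and 1 lower, Hoxa3 (-0.20).

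Hoxb2, which patterns the hindbrain in the embryo, set MAP3K11 apart most sharply. Its 6 MAP3K11 arrays had a lowest, median and highest level of 7.64, 7.91 and 8.31, against 5.17, 6.46 and 7.91 in the other 70. Only 2 of the 70, both from MAP3K7 tumours, reached the lowest MAP3K11 array. The mean was 7.91 ± 0.25 in MAP3K11 and 6.48 over the other 12 groups (SD, n = 6; difference 1.44, SE 0.16, limma adjusted p = 2.67e-11, 3.08e-08 with the block). The gene lies on chromosome 11 at 96351632 to 96354020. In the same cluster Hoxb4, a factor known from blood stem cells, had a lowest, median and highest level of 6.06, 6.33 and 6.48 in MAP3K11, against 5.33, 5.83 and 6.35 elsewhere, with 7 of the 70 other arrays inside the range.

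Hoxa9, needed with its paralogues for mammary growth in pregnancy in the mouse, had levels of 7.10, 7.49 and 8.01 in MAP3K11, against 4.41, 6.30 and 7.54 in the other 70 arrays, again as lowest, median and highest. Of those 70, 3 reached the lowest MAP3K11 array. The means were 7.53 ± 0.30 and 6.13 (SD, n = 6; difference 1.40, SE 0.20, limma adjusted p = 3.16e-08). Hoxa9 was thus high in the group where Hoxa5 and Hoxa7 were not, since these had differences of -0.47 and -0.31 in MAP3K11 that did not pass the test (limma adjusted p = 0.140 and 0.0839).

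In cluster Hoxc, Hoxc8 and Hoxc10, which act in the trunk and hindlimb region of the mouse embryo, and Hoxc4 were all higher. Hoxc4 levels were 5.19, 5.62 and 5.83 in MAP3K11 against 4.13, 4.72 and 5.65 elsewhere, with 4 of 70 other arrays inside the range. Hoxc8 levels were 7.28, 7.64 and 7.90 against 4.44, 6.21 and 8.30, with 5 of 70 at or above the lowest MAP3K11 array and RSK2 holding the top one. All MAP3K11 arrays thus lay above the median of the other arrays for both genes. Hoxc10 was the most scattered, at 4.76, 5.70 and 6.31 in MAP3K11 against 3.24, 4.50 and 5.89, and 18 of the 70 others reached into that range. Its difference of 1.20 had an SE of 0.20 (limma adjusted p = 1.05e-06, 0.00142 with the block).

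Among the genes below the filter, Hoxb6 and Hoxb5, neighbours in the Hoxb cluster, and Hoxa10 had their highest means in MAP3K11, at 4.61, 4.10 and 4.18. Fitted without a filter, their differences were 0.74, 0.51 and 0.44, with limma adjusted p of 9.77e-08, 1.84e-05 and 0.000417. The next highest means of Hoxb6 and Hoxb5 were in RSK2, at 4.38 and 3.95. Their RSK2 differences without a filter were 0.48 and 0.34, with limma adjusted p of 0.00278 and 0.0151. The share of all genes called without a filter was not counted. Antisense Hoxb5os spans Hoxb5 and Hoxb6 on the map, and its probe set showed the smaller MAP3K11 difference of 0.24. The probe set that names both Hoxb7 and Hoxb8 ran between 6.05 in MAP3K11 and 5.07 in ErbB3, with a MAP3K11 difference of 0.73 (limma adjusted p = 2.16e-09).

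**Figure D4:**
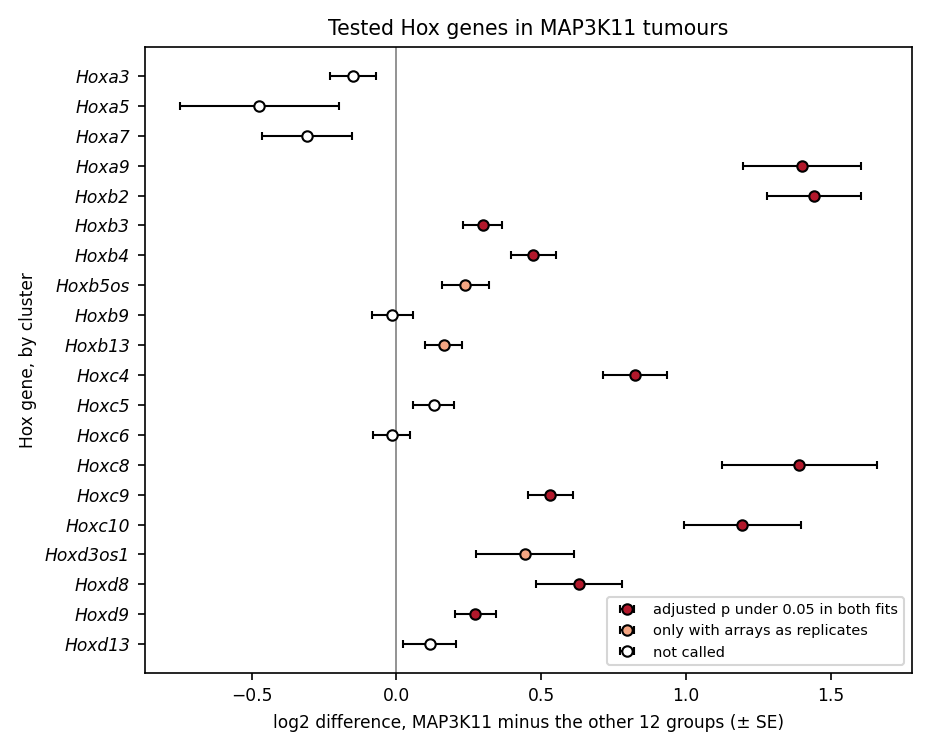
Log2 difference of MAP3K11 tumours from the mean of the other 12 groups for the 20 tested Hox genes (x axis, points with SE bars), by cluster; filled red points were called in both fits, light points only with arrays as replicates, and open points in neither. Hoxb2, Hoxa9, Hoxc8 and Hoxc10 lie between 1.20 and 1.44, and Hoxa5 lies left of 0 at -0.47 without a call.

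The MAP3K7 group, driven by another MAP3 kinase, was divided in the same genes. A pair of its arrays had Hoxb2 levels of 7.91 and 7.67, Hoxa9 levels of 7.54 and 6.95 and Hoxc4 levels of 5.53 and 5.65, in or next to the MAP3K11 range. The pair that was high in Hoxa5 was instead at 6.05 and 5.17 for Hoxb2, 5.39 and 5.07 for Hoxa9 and 4.15 and 4.13 for Hoxc4. The remaining pair lay between these in Hoxb2, at 6.30 and 6.22. As a group, MAP3K7 had 1 Hox gene called, Hoxb5os (difference 0.25), where 12.2% of all genes were higher, and none with the block, where 7.9% of all genes were called in either direction; limma gave 4 at an unadjusted p under 0.05 without the block and 1 with it.

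**Figure D5:**
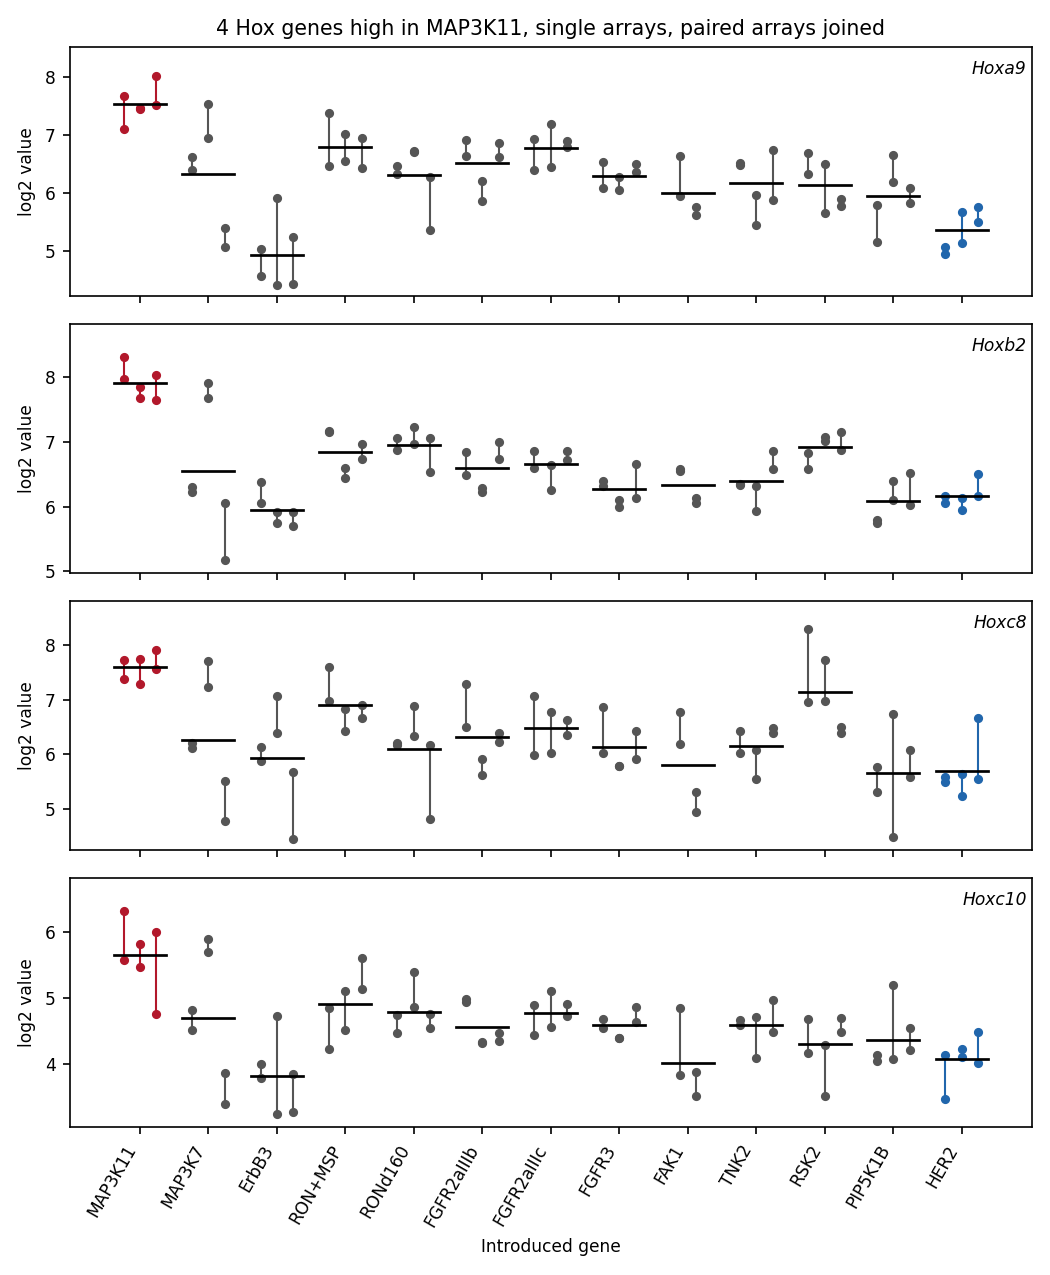
Log2 levels of Hoxa9, Hoxb2, Hoxc8 and Hoxc10 on each array by introduced gene (MAP3K11 in red at the left, HER2 in blue at the right), with paired arrays joined and group means as black bars. The MAP3K11 arrays are high in all 4 panels, 1 MAP3K7 pair reaches them, with Hoxb2 at 7.91 and 7.67, and another MAP3K7 pair is among the lowest arrays.

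In ErbB3 tumours Hoxa3, Hoxa5 and Hoxa7 were higher than in the other 12 groups, and Hoxa9, Hoxb2, Hoxc4 and Hoxc10, all high in MAP3K11, were lower. The Hoxa9 arrays had a lowest, median and highest level of 4.41, 4.80 and 5.91 in ErbB3, and the mean was 4.93 ± 0.59 against 6.35 for the other 12 groups (SD, n = 6; difference -1.42, SE 0.21, limma adjusted p = 7.96e-07, 0.000898 with the block). The highest ErbB3 array thus lay below every MAP3K11 array, whose lowest was 7.10. Differences in the same direction were -0.81 for Hoxc10, -0.67 for Hoxb2 and -0.31 for Hoxc4. The ErbB3 mean of Hoxc10 was 3.81, below the near-background level of 3.95. With the block only Hoxa9 and Hoxb2 were still called lower, where 6.12% of all genes were. Higher were Hoxa5 (1.27), Hoxa7 (0.83) and Hoxa3 (0.41), all 3 also with the block, where 5.8% of all genes were higher. In total 3 of the 20 were higher and 4 lower, where 15% of all genes were higher and 13.6% lower. The span of Hoxa3 covers Hoxa4 and Hoxa5, and whether its probe set reads other transcripts of that stretch was not tested.

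HER2 tumours, in which the first oncogene was put back, had 7 Hox genes lower and none higher, where 11.1% of all genes were lower and 15.5% higher. With the block 2 were lower, Hoxa5 and Hoxa9, where 3.63% of all genes were. Hoxa9 stood at a lowest, median and highest level of 4.94, 5.32 and 5.76 in HER2, and its mean was 5.35 ± 0.34 against 6.31 (SD, n = 6; difference -0.97, SE 0.20, limma adjusted p with the block = 0.0321). The ErbB3 and HER2 arrays overlapped for this gene. Hoxc10 (-0.52), Hoxb2 (-0.46), Hoxa7 (-0.43), Hoxd8 (-0.41) and Hoxb4 (-0.32) were called without the block alone. The median difference of the tested Hox genes was -0.20 in HER2, with 0.01 for all genes.

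RSK2 tumours had the highest group means of Hoxd3os1, Hoxd8 and Hoxd9, 3 of the 4 tested members of cluster Hoxd. MAP3K11 was almost level for Hoxd8 (6.985 against 7.01 in RSK2) and Hoxd9 (6.696 against 6.705), and less so for Hoxd3os1 (5.335 against 5.657). Second probe sets of Hoxd8 (6.446) and Hoxd3os1 (3.658, below the filter) had their highest means in MAP3K11. Hoxd8, a trunk-expressed member of the cluster, had a lowest, median and highest level of 6.58, 6.91 and 7.51 in RSK2, against 5.67, 6.35 and 7.47 in the other 70 arrays. For Hoxd3os1, an antisense RNA that overlaps Hoxd3 on the map, these were 5.19, 5.63 and 6.40, against 3.77, 4.87 and 6.17. For both genes the RSK2 arrays overlapped the rest, with 21 of the 70 others at or above the lowest RSK2 array for Hoxd8 and 13 for Hoxd3os1. In RSK2 5 Hox genes were called higher, where 8.73% of all genes were: Hoxa5 (1.40), Hoxc8 (0.85), Hoxd3os1 (0.79), Hoxd8 (0.63) and Hoxd9 (0.27). Hoxd9 had levels of 6.48, 6.64 and 7.04 in RSK2, and its lowest group mean was 6.25 in FGFR3. Hoxb9 was lower (-0.21), where 9.52% of all genes were. With the block Hoxa5 alone was called, where 1.49% of all genes were higher.

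In the other groups few Hox genes were called. FGFR2aIIIb had 4 lower (Hoxa5, Hoxa7, Hoxd13 and Hoxb5os), where 4.69% of all genes were lower, and 1 with the block (Hoxa5), where 0.411% were. PIP5K1B had 3 lower, Hoxc8 (-0.74), Hoxb2 (-0.54) and Hoxd9 (-0.21), where 7.45% of all genes were, and 0 with the block by limma, where 3.61% of all genes were called in either direction and 3 Hox genes had an unadjusted p under 0.05. RONd160 had 2 lower, Hoxa5 (-1.08) and Hoxa3 (-0.27), where 11.9% of all genes were, and kept Hoxa5 with the block, where 4.6% were. RON+MSP had Hoxa9 higher by 0.60 at a limma adjusted p of 0.04998, where 4.18% of all genes were higher, and 0 with the block, where 0.461% of all genes were called and no Hox gene had an unadjusted p under 0.05. FAK1, FGFR2aIIIc and FGFR3 had 0 by limma, where 8.42%, 1.62% and 2.6% of all genes were called, with 5, 4 and 5 Hox genes at an unadjusted p under 0.05. With the block 0.808%, 0.0721% and 0% of all genes and no Hox gene were called, and 0, 1 and 3 Hox genes had such a p. Neither T2 nor T3 arrays differed from T1 arrays in any Hox gene by limma, where 0% of all genes were called, and 0 of the 20 had an unadjusted p under 0.05. With the block 0 Hox genes were called as well, where 0% of all genes were at T2 and 0.00721% at T3. All comparisons of 1 group with the other 12 share arrays.

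Across clusters, 8 genes were positively correlated over the 13 groups: Hoxa9, Hoxb2, Hoxb4, Hoxc4, Hoxc8, Hoxc10, Hoxd8 and Hoxd9. Their 28 pairs had Pearson r between 0.526 and 0.935 with a median of 0.764. Without the 2 groups farthest from the median of the first gene of each pair, r lay between 0.192 (Hoxb4 with Hoxc10) and 0.887, with a median of 0.577, so several of these values rest on few groups. The strongest partners of Hoxb2 were Hoxc9 at 0.943 and Hoxc4 at 0.935. Hoxa5 and Hoxa7 had r between -0.472 and 0.324 with those 8 genes. Within groups, over the deviations of the 38 pairs from their group mean, r was 0.663 for Hoxa5 with Hoxa7 and between -0.138 and 0.904 among the 8 genes, the highest being Hoxa9 with Hoxd8. These are descriptions over few points that share normalisation and tumour composition, and the genes were grouped after their values were known.

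Of this second set of genes, the RefSeq promoter table holds Hoxc4 and Hoxd8 beside Hoxa9, and their 250 bases before the start are shown as examples from other clusters. Over the 13 groups Hoxa9 had a Spearman rho of 0.593 with Hoxd8, which was highest in RSK2 and lowest in HER2. Hoxc4 is chr15:103034145-103034394 on the plus strand, a start that lies inside the gene's annotated span of 103018097 to 103036856. Hoxd8 is chr2:74704365-74704614 on the plus strand. CpG dinucleotides are in capitals.
Hoxc4: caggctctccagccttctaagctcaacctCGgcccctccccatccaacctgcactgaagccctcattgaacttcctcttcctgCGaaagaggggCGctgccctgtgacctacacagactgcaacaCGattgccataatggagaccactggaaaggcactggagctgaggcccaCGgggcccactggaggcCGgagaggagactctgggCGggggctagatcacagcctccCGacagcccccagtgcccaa
Hoxd8: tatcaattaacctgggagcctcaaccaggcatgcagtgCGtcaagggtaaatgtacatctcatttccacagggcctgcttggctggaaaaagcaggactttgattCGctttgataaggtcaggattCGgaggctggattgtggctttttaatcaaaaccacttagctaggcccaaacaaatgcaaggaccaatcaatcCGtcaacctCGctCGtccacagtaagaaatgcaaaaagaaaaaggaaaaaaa
The Hoxc4 stretch held 8 CpG dinucleotides and the Hoxd8 stretch 6, where 43% and 50.4% of all promoters held at least as many. The motif AGGTCA, letters bound by nuclear receptors such as the retinoic acid receptors, was found, with both strands searched, in Hoxc4, Hoxd8 and Hoxb4 and in 14% of all promoters. The match is a description only. In all, 21 of the 36 members were in the table, 10 of them tested.

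Other probe sets of the same genes gave mixed answers. A second Hoxa9 probe set had its highest group mean in MAP3K11 (6.43) and its lowest in HER2 (5.93), with a MAP3K11 difference of 0.39 (limma adjusted p = 9.17e-07), but was not called in ErbB3 (-0.15) or HER2 (-0.15). A second Hoxa5 probe set correlated with the first at 0.892 over the groups and spanned only 6.44 to 6.92. It was called in TNK2 (0.28) and FGFR2aIIIb (-0.24) and not in ErbB3 (0.07), RSK2 (0.17), HER2 (-0.16) or RONd160 (-0.01). Hoxc6, which takes part in mammary gland growth in the mouse, had a difference of -0.02 in MAP3K11 on the probe set used, without a call. It was 0.55 on each of the other 2 (limma adjusted p = 5.09e-07 and 4.72e-07), so whether Hoxc6 was higher there depends on the probe set. Hoxc5 had 0.13 in MAP3K11 on the probe set used, without a call, and 0.12 and 0.71 on others that missed the filter. A second Hoxb3 probe set had 0.88 in MAP3K11 (limma adjusted p = 2.05e-10), beside 0.30 on the probe set used. For Hoxa3 a second probe set had 0.16 and the one used -0.15, neither called. For Hoxd8 a second probe set had 0.59 in MAP3K11 beside 0.63.

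Genes of other cell types moved with several of these groups. The mean of 9 tested fibroblast markers, each centred over the arrays, was 0.58 in MAP3K11 (arrays 0.362 to 0.795), 0.574 in RSK2, 0.473 in MAP3K7, 0.365 in RON+MSP and 0.350 in ErbB3, and -0.524 in PIP5K1B, -0.542 in FAK1 and -0.678 in HER2 (-1.08 to -0.378). ErbB3, the group with the lowest means of Hoxa9, Hoxb2, Hoxc4 and Hoxc10, was thus among those with higher fibroblast markers. Over the 13 groups it correlated with Hoxd8 at 0.847, Hoxc8 at 0.778 and Hoxd3os1 at 0.776. With this mean as a covariate, added after seeing the data, 9 Hox genes were called higher in MAP3K11, where 22.1% of all genes were, led by Hoxb2 (1.18), Hoxa9 (0.86), Hoxc8 (0.77), Hoxc10 (0.76) and Hoxc4 (0.68). Hoxd8 (0.25), Hoxd3os1 (0.03), Hoxb5os (0.13) and Hoxb13 (0.13) were not called in that fit. In HER2 the covariate left 1 Hox gene called lower, Hoxa5, where 2.34% of all genes were lower. Hoxa9 had a difference of -0.37 there without a call. In RSK2 the covariate left Hoxa5 as the only Hox gene called higher, where 1.65% of all genes were. Hoxa9, Hoxb9 and Hoxc10 were called lower in RSK2, where 1.05% of all genes were. Fibroblast markers such as Col1a2 (median level 12.63) and Pdgfrb (10.39) were well above the control level in these tumours.

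The mean of 8 macrophage and monocyte markers correlated over the 13 groups with Hoxa5 at 0.690 and with Hoxa7 at 0.743. Values of similar size were found for other lists. Markers of T, B and NK cells correlated with Hoxa5 at 0.685 and with Hoxa7 at 0.710, and epithelial markers at -0.612 and -0.761. The macrophage mean was 0.502 in ErbB3, 0.465 in FGFR3 and 0.459 in TNK2, and -0.482 in HER2 and -0.558 in MAP3K11 (arrays -0.761 to -0.236). The FAK1 pair with high Hoxa5 had marker means of 0.740 and 0.780 and the low pair -1.19 and -0.965, while fibroblast markers in the same pairs were 0.399 and 0.368 against -1.53 and -1.40. The MAP3K7 pair with high Hoxa5 had macrophage means of 0.909 and 1.00, and the other arrays of that group -0.274 to -0.0636. In RONd160 the order was the other way, with -1.12 and -0.888 in the pair with higher Hoxa5 and -0.635 to 0.234 in the other arrays. With the macrophage mean as a covariate, also added after seeing the data, Hoxa5 kept its call in the 6 groups called without it. The differences were 1.40 in TNK2, 1.28 in RSK2, 0.78 in ErbB3, -0.71 in RONd160, -1.55 in FGFR2aIIIb and -1.23 in HER2. In that fit Hoxa5 was also called lower in FGFR2aIIIc and MAP3K7, where 1.34% and 13.4% of all genes were lower. MAP3K11 had 10 Hox genes called higher in that fit, where 25% of all genes were. Epithelial markers (8 of 9 tested) averaged 0.637 in MAP3K11 (arrays 0.456 to 0.884), 0.334 in HER2 and -0.530 in ErbB3 (-1.37 to 0.163), and with them as a covariate 11 Hox genes were called higher in MAP3K11, where 22.4% of all genes were.

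Endothelial and skeletal muscle markers moved with some of the same groups. The mean of 8 endothelial markers was 0.593 in RSK2 (arrays 0.249 to 0.839), 0.40 in MAP3K11 (0.187 to 0.633) and -0.447 in HER2 (-0.629 to -0.204), and over the 13 groups it correlated with Hoxd3os1 at 0.830, Hoxd8 at 0.810 and Hoxc8 at 0.805. With it as a covariate, added after seeing the data, 12 Hox genes were called higher in MAP3K11, where 24.7% of all genes were. In RSK2, Hoxd3os1 (0.64), Hoxa5 (1.28) and Hoxd9 were still called higher in that fit, where 3.07% of all genes were. Hoxd8 (0.47) and Hoxc8 (0.64) were not. Hoxb9 was still called lower, where 3.08% of all genes were. The mean of 8 skeletal muscle markers was 2.92 in RSK2 (arrays 1.09 to 4.40) and -2.30 in MAP3K11 (-2.37 to -2.15), and its correlation was 0.170 with Hoxd8, -0.299 with Hoxb2 and -0.660 with Hoxb5os. With it as a covariate, also added after seeing the data, 11 Hox genes were called higher in MAP3K11, where 24.1% of all genes were.

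Transcripts of genes whose products act with Hox proteins or on Hox clusters are given here beside the shares of all genes. Of 7 tested cofactor genes 6 were called by the F test, where 85.9% of all genes were, and 3 with the block, where 54% of all genes were. In MAP3K11, 1 cofactor was higher and 2 were lower, where 25% and 29.3% of all genes were. Meis2, a TALE homeodomain partner of Hox proteins, was at its lowest mean there, 6.47, and at its highest, 7.71, in FGFR3, with a MAP3K11 difference of -0.89 (limma adjusted p = 6.80e-07). Meis1, of the same class, had a difference of -0.44 in MAP3K11 (limma adjusted p = 0.0417, 0.0824 with the block). Pknox2 had the widest span of the list, between 6.05 in ErbB3 and 4.57 in FAK1. Of the Polycomb genes, all 22 tested were called by the F test and 15 with the block. In MAP3K11, 10 of them were lower and 1 was higher, where 29.3% and 25% of all genes were. With the block 8 were lower and 1 higher there, where 22.1% and 17.3% of all genes were. The median difference of the Polycomb genes there was -0.13. Among them were Cbx6 (-1.01) and Cbx7 (-0.86), chromobox subunits that read the repressive mark, and Rnf2 (-0.78), the ubiquitin ligase of the complex.

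Of the 18 Trithorax and activator genes, which include the retinoic acid receptors, all were called by the F test, where 85.9% of all genes were, and 9 with the block, where 54% were. In MAP3K11, 5 were higher and 6 lower, where 25% and 29.3% of all genes were, with a median difference of 0.02. Rarb, a retinoic acid receptor that is itself a retinoic acid target, had its highest mean there, 5.85, and its lowest in ErbB3, 4.08, the same extremes as Hoxa9, Hoxb2, Hoxc4 and Hoxc10. Its difference in MAP3K11 was 1.46 (limma adjusted p = 9.45e-13, 5.95e-07 with the block). Rara had the opposite sign (-0.72), as had Mllt3 (-0.65), a subunit of an elongation complex. Of 24 tested genes that flank the Hox clusters, 21 were called by the F test and 13 with the block, and in MAP3K11 7 were higher and 6 lower, with a median difference of 0.01. All of these counts are near the shares of all genes, 85.9%, 54%, 25% and 29.3%. Chn1, which lies beside cluster Hoxd, was higher by 0.98 in MAP3K11. Copz2, near cluster Hoxb, was highest in RSK2 (8.63) and lowest in HER2 (7.09), as Hoxd8 was, and Nfe2, near cluster Hoxc, had the widest span of the flanking genes, 1.77.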

How the data were processed

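Total RNA of 76 tumours was labelled with biotin and put on Affymetrix arrays of 45101 probe sets, per the labels' protocols. The deposited values are log2 intensities that the authors had normalised; the submitters' processing notes name affy, and the method and its version are not given in the sources used here. They were used as deposited.

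Probe sets naming 1 gene (34958) were reduced to the one with the highest mean per gene, giving 18194 genes, named and placed through RefSeq (GRCm38.p6). Tests covered 13868 genes above the 40th percentile of an array in at least 4 arrays. The model in limma 3.58.1 (R 4.3.3) had a term for each introduced gene and for T1, T2 and T3, fitted to all 76 arrays. Contrasts were each group minus the mean of the other 12, and T2 or T3 minus T1. The alternative with pairs as a random block used a consensus correlation of 0.628. The fit without the block was tested on simulated data with independent arrays, so that test does not cover the likeness of paired arrays. The Hox members, gene lists and marker lists were chosen with earlier results of these data known. Values are given for up to 3 tested genes of each cluster with the widest span of group means, for up to 2 called Hox genes at each end of a comparison, and for up to 3 genes of each other list with the widest span; the rest of the called genes are named with their difference alone, and Hoxc6, Hoxc9 and genes below the filter were added after their values were seen. The number of arrays limits the precision. Other settings tried were quantile normalisation, median centring, other filters, other probe sets, array weights, 2 MAP3K7 arrays left out, the title's replicate number as a block and leaving out single arrays; marker covariates were added after seeing the data. The labels do not say that the replicate numbers in titles mark shared animals or batches.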

Additional observations from a re-analysis of the deposited data

Results flagged for a closer look

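Single arrays that stood apart from the others of their group, by the gap to the next array relative to the group's range, were found in 7 of 156 group and gene combinations over 12 Hox genes, where chance gives about 1 in 20. In RONd160 tumours the T1 replicate 3 array had a Hoxa9 level of 5.36, with the others between 6.27 and 6.72, and the same array had a Hoxc8 level of 4.81, with the others between 6.16 and 6.88. In the same group the T3 replicate 2 array, its paired array, had a Hoxb5os level of 6.82, with the others between 6.31 and 6.41. In HER2 tumours the T2 replicate 1 array had a Hoxc8 level of 6.67, with the others at 5.23 to 5.63, and a Hoxd8 level of 6.62, with the others at 5.75 to 6.04. The T1 replicate 2 array of FGFR2aIIIb was low in Hoxa7 at 6.21, with the others at 6.50 to 6.66, and the T1 replicate 1 array of ErbB3 was low in Hoxb4 at 5.51, with the others at 5.81 to 5.93.

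Probe sets that name 2 Hox genes belong to no member and were not part of the comparisons over members. Of those, the probe set shared by Hoxb8 and Hoxb7 had a median level of 5.36 over the 76 arrays, with arrays from 4.80 to 6.63. The 2 probe sets shared by Hoxd4 and Hoxd3 had median levels of 4.91 (arrays 4.41 to 5.36) and 3.98 (arrays 3.50 to 4.89), above the control level of 2.95.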

How the results depend on the processing

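No called difference of a Hox gene in the group it is named for changed sign under the settings run. Of uncalled MAP3K11 differences, those of Hoxa3, Hoxc6 and Hoxd13 did on another probe set, as did that of Hoxa4, which was not tested. The other probe sets of Hoxd13 and Hoxa4 missed the filter. Of the differences, 308 stayed on their side of the threshold and 61 lost their call. The count of Hox genes differing among groups was within 1.5 times the reported one in each setting run. In MAP3K11 it was outside that range once, at 8 with a filter at the 60th percentile, which tests fewer genes. With the pairs as a random block HER2 had 2 Hox genes called, FGFR2aIIIb, RONd160 and RSK2 had 1 each and MAP3K7, PIP5K1B and RON+MSP had 0. With pair means, which have no T term because paired arrays carry different T labels, ErbB3 had 4, HER2 had 3, RSK2 had 1 and FGFR2aIIIb, MAP3K7, PIP5K1B, RON+MSP, RONd160 and TNK2 had 0. With the title's replicate number as a block (replicate block) RON+MSP had 0, and no other count moved as far. Array weights, whose estimation stopped before reaching its tolerance, gave 3 in FGFR2aIIIc, 6 in FGFR3, 2 in MAP3K7, 8 in PIP5K1B, 3 in RON+MSP, 6 in RONd160 and 2 in TNK2. At a threshold of 0.01 FGFR2aIIIb had 1, HER2 had 3 and MAP3K7, PIP5K1B and RON+MSP had 0. Quantile normalisation gave 3 in HER2, 1 in PIP5K1B and 0 in MAP3K7, and median centring gave 2 in FGFR2aIIIb and 2 in MAP3K7. RON+MSP had 0 with an intensity trend and robust prior, without a filter and with the mean of all probe sets, which gave 5 in PIP5K1B, and TNK2 had 2 without a filter. With settings chosen after seeing the data, the fibroblast covariate gave 11 in ErbB3, 4 in RONd160, 2 in FGFR2aIIIb, 1 in FGFR2aIIIc, 1 in HER2 and 0 in PIP5K1B. The macrophage covariate gave 2 in MAP3K7, 1 in FGFR2aIIIc and 0 in RON+MSP, and the epithelial covariate gave 3 in HER2. The endothelial covariate gave 1 in FGFR2aIIIb, 1 in FGFR3, 3 in HER2 and 0 in RON+MSP, and the skeletal muscle covariate gave 2 in FGFR2aIIIb. Without 2 MAP3K7 arrays MAP3K7 had 3 and RON+MSP had 2. Leaving out single FAK1 arrays gave 0 to 1 in FAK1. The share of all genes called is not set beside these counts here, and for most settings it was not counted. These counts therefore cannot tell a change in Hox genes from a change in all genes. The number of near-background genes was 4 with a margin of 0.5, 20 with a margin of 2 and 18 by the 40th percentile. The share of higher among all called genes moved by over 10 points with scaling in several groups. With median centring it was 74.1% in HER2 in place of 58.2% and 17.6% in RSK2 in place of 47.8%. In FAK1 it was 76.6% in place of 40.6%. With quantile normalisation it was 57.8% in HER2, 37.1% in RSK2 and 59.6% in FAK1. In MAP3K11 it stayed at 46.0% to 46.4%. Apart from the fewer genes or samples of the settings that drop some, the cause was not tested.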
